A study of Mus musculus with 35 samples.

Results

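The collagen genes of the mouse were examined in total RNA sequencing of pancreatic tumors and of myeloid cells sorted from them and from the spleen. Members were all rows of the count table whose Ensembl identifier belonged to a protein-coding gene with a symbol made of Col, a number, the letter a and a number. This name rule used no measured value and gave 44 genes of the 53379 in the table.

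Collagens are secreted or membrane-bound proteins whose chains wind into a triple helix. Fibrillar collagens assemble into the cables of connective tissue, collagen IV forms the sheet of the basement membrane, collagen VI forms fine beaded filaments near cells, and fibril-associated collagens coat fibrils without forming cables themselves. Pancreatic cancer is known for a dense collagen-rich stroma, which is laid down largely by fibroblasts and stellate cells, while tumor epithelium and vessels contribute basement membrane collagens.

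Mice carried orthotopic tumors of T110299, 1 cell line derived from a pancreatic tumor of a genetically engineered mouse with Ptf1a-Cre, a driver active in the pancreatic lineage. All groups shared this tumor, including those whose cells came from the spleen, and no tumor-free group was analysed here. Treated mice received 50 µg poly(I:C), a double-stranded RNA mimic complexed with polyethylenimine for intravenous delivery (poly(I:C)c), on days 18 and 20 after tumor implantation. The study's methods name glucose as the control injection, but the sequenced controls are described only as untreated. CD11b+ cells were enriched on magnetic beads and sorted into polymorphonuclear myeloid-derived suppressor cells (PMN-MDSC, Ly6C low and Ly6G+) and monocytic ones (M-MDSC, Ly6C high and Ly6G-), and untreated bulk tumor pieces were lysed whole. The tumor groups comprised 4 bulk tumors, 4 untreated and 4 treated PMN-MDSC libraries, and 4 untreated and 3 treated M-MDSC libraries. The spleen groups comprised 4 untreated and 3 treated PMN-MDSC libraries and 4 untreated and 4 treated M-MDSC libraries. A further column labelled as treated tumor M-MDSC held 10 counts and was not used. The study counts the replicates of a sorted group as mice. The labels number the samples but tie no library to a mouse. Comparisons between sites and with bulk tumor treated the libraries as independent, and any mice shared between groups were not modelled.

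Library totals ranged from 3771590 to 8886115 counts in bulk tumor and from 793070 to 4357105 in the sorted groups. Markers of the gates ran partly with and partly against the labels. The summed level of 9 neutrophil markers was 18491 to 30826 CPM (a gene's counts scaled to the library's total count) in untreated spleen PMN-MDSC but 1033 to 3852 CPM in untreated tumor PMN-MDSC. The summed level of 8 macrophage markers was 10770 to 14568 CPM in untreated tumor PMN-MDSC, above the 4859 to 9800 CPM of untreated tumor M-MDSC and the 835 to 2204 CPM of untreated spleen PMN-MDSC. Among untreated tumor libraries, neutrophil and monocyte markers followed the gates. Neutrophil markers summed to 218 to 562 CPM in untreated tumor M-MDSC, below the PMN-MDSC values, and the 7 monocyte markers to 11230 to 14423 CPM in untreated tumor M-MDSC against 4418 to 8798 CPM in untreated tumor PMN-MDSC. No neutrophil or macrophage marker was at 0 over these sorted groups. In treated tumor libraries the monocyte markers overlapped between the gates, at 1504 to 2958 CPM in PMN-MDSC and 1994, 3100 and 6084.5 CPM in M-MDSC. The names PMN-MDSC and M-MDSC below are therefore those of the labels and gates.

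Collagen mRNA was abundant in bulk tumor and sparse in every sorted group. Summed over the 44 genes, the collagen level was 3117 ± 190 CPM (SD, n = 4) in bulk tumor, with a range of 2844 to 3272 CPM. It was 246.8 ± 69.0 CPM (n = 4) in untreated tumor PMN-MDSC, which is 7.92% of the bulk level, and 91.4 ± 62.5 CPM (n = 4) in untreated tumor M-MDSC, which is 2.93%. Spleen libraries held 105 ± 19.4 CPM (n = 4) in untreated PMN-MDSC and 34.8 ± 4.26 CPM (n = 4) in untreated M-MDSC. The lowest bulk library lay far above the highest sorted library, a treated tumor PMN-MDSC library at 371 CPM. In these bulk RNA measurements, fewer cells of a type and less RNA per cell cannot be told apart. Of the 44 genes, 31 reached 3 counts in at least 2 of the 4 bulk libraries, against 20 in untreated tumor PMN-MDSC, 15 in untreated tumor M-MDSC, 12 in untreated spleen PMN-MDSC and 9 in untreated spleen M-MDSC. Counts came from amplified libraries without molecular identifiers, so all counting intervals given here cover counting error only.

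Levels of different genes were compared per length, as FPKM (CPM divided by the summed exon length in kilobases). Among fibrillar collagens in bulk tumor, Col1a1 (chromosome 11, 94936224 to 94953042, GRCm38, plus strand), the major chain of type I collagen, was highest at 58.5 ± 10.3 FPKM (n = 4). It ranked 415th of the 21865 protein-coding genes by mean FPKM. Col3a1 (chromosome 1, 45311538 to 45349706, plus strand), the single chain of type III collagen of soft tissues and vessel walls, stood at 33.2 ± 3.28 FPKM, and Col1a2, the partner chain of type I collagen, at 17.8 ± 2.29 FPKM. Col27a1, a fibrillar collagen described in cartilage, had 13.5 ± 0.628 FPKM. The collagen V chains, which start fibrils and limit their diameter, followed with 12.03 ± 2.77 FPKM for Col5a1, 11.03 ± 1.11 FPKM for Col5a2 and 1.22 ± 0.102 FPKM for Col5a3. Col11a1, a minor fibrillar chain, had 0.645 FPKM.

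Basement membrane collagen IV gave the highest collagen of the tumor. Col4a1 (chromosome 8, 11198423 to 11312826, minus strand) had 70.6 ± 8.62 FPKM in bulk tumor (n = 4) and ranked 323rd of all protein-coding genes, ahead of Col1a1 by less than the sum of their SDs. Col4a2 (chromosome 8, 11312805 to 11449287, plus strand), which joins Col4a1 in the common collagen IV helix, had 38.6 ± 5.94 FPKM. Col4a5, a chain of a more restricted collagen IV network, had 6.37 FPKM. The gene models of Col4a1 and Col4a2 lie head to head, and their RefSeq promoter windows (GRCm38.p6, 250 bases before and 50 after the start, chr8:11312777-11313076 on the minus strand and chr8:11312555-11312854 on the plus strand) share 78 bases. The windows are shown because these 2 genes are the partner chains of the most abundant collagen and start from 1 shared stretch. Capitals mark the shared bases, which are read from opposite strands.
Col4a1: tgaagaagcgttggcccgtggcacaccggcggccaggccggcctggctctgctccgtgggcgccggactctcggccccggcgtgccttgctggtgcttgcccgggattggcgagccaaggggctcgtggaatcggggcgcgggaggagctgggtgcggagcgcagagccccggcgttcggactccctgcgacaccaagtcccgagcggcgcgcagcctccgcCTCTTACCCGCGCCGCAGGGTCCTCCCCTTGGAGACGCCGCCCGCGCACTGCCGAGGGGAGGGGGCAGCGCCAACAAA
Col4a2: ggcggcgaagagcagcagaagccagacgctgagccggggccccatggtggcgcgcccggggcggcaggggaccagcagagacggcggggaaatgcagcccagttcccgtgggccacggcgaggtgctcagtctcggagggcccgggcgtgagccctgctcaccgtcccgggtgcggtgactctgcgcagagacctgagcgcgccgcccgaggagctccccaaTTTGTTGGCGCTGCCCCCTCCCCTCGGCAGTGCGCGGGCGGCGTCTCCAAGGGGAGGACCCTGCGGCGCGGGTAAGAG
RefSeq promoter windows were found for 35 of the 44 collagens, in 38 windows. A GC box, searched as GGGCGG on both strands, lay in 23 of these 38 windows (60.5%), the Col4a1 and Col4a2 windows among them, against 35.7% of all 32851 windows. The CCAAT box, searched as CCAAT on both strands, lay in 13 of 38 (34.2%) against 37.4% of all windows, again including both collagen IV windows. The TATA box, searched as TATAAA on both strands, lay in 5 of 38 (13.2%), Col3a1 among them, against 13.6% of all windows. These are matches of letters and not mapped binding sites.

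Other collagen families filled the middle of the range. Col18a1 (chromosome 10, 77052178 to 77166548, minus strand), a basement membrane zone collagen whose end is released as endostatin, was the third most abundant collagen at 56.9 ± 7.28 FPKM (n = 4). Its relative Col15a1 (chromosome 4, 47208161 to 47313167, plus strand) had 14.7 ± 0.405 FPKM. The chains of the beaded filament collagen VI had 25.2 ± 6.41 FPKM for Col6a1, 11.2 ± 2.83 FPKM for Col6a2 and 7.46 ± 1.02 FPKM for Col6a3. Col8a1, a network collagen of vessel walls, had 5.67 FPKM, and Col12a1, a fibril-associated collagen, had 5.61 FPKM. A gap followed. Col14a1 (ENSMUSG00000022371.16, chromosome 15, 55307750 to 55520803, plus strand), the fibril-associated relative of Col12a1, was 17th at 1.58 FPKM, next to Col7a1, the chain of the anchoring fibrils beneath epithelia, at 1.27 FPKM and Col16a1, another fibril-associated collagen, at 1.25 FPKM. Of the remaining 23 genes Col10a1, a network collagen of growing cartilage, was highest at 0.373 FPKM and Col26a1 had 0 counts in all 4 bulk libraries. Col17a1, the hemidesmosome collagen of stratified epithelia, had 1 to 2 counts in each bulk library.

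**Figure D1:**
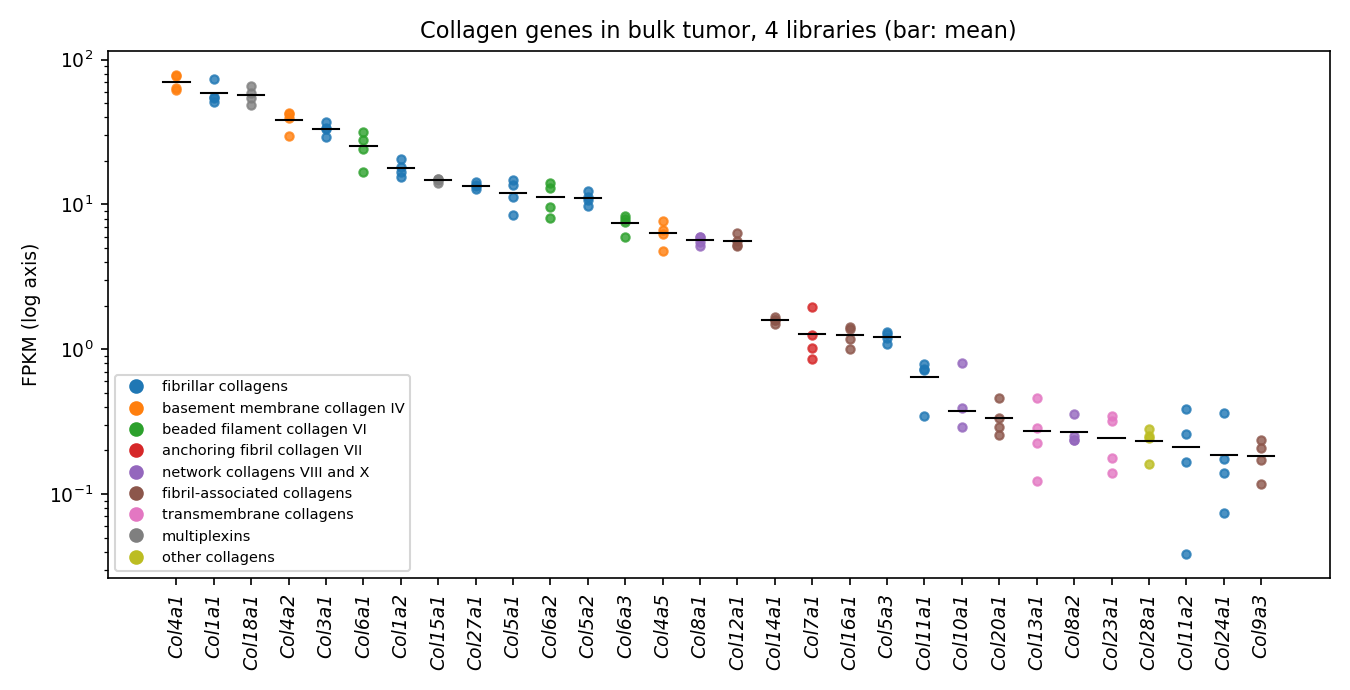
FPKM of the 30 collagen genes with the highest mean in bulk tumor, on a log axis, with 1 point per library (n = 4), a bar at the mean and colour by collagen family. A step separates Col12a1 at 5.61 FPKM from Col14a1 at 1.58 FPKM, and points at 0 cannot be drawn on this axis.

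Chains that assemble into 1 protein did not have equal levels in FPKM for most pairs examined. The ratio of Col1a1 to Col1a2 in FPKM was 3.29 ± 0.223 (n = 4), from 3.02 to 3.56 over the bulk libraries. The ratio of Col4a1 to Col4a2 was 1.84 ± 0.183, from 1.63 to 2.07, and that of Col6a1 to Col6a2 was 2.25 ± 0.191, from 2.08 to 2.52. Each of these ratios was above 1 in all 4 libraries. Col6a3 stood at 0.304 ± 0.042 of Col6a1, below 1 in all 4 libraries, while Col5a1 to Col5a2 averaged 1.10 ± 0.305 and fell on both sides of 1, from 0.781 to 1.51. The ratios were taken on summed exon lengths, which include long untranslated ends and every annotated exon. These lengths were 6563 bases for Col1a1 and 12426 for Col1a2, and 4380 for Col6a1 and 8326 for Col6a2. The size of the ratios therefore depends on the lengths used. In CPM, Col6a1 (73.2 to 139) and Col6a2 (66.7 to 117) overlapped, while Col1a1 (336 to 485) stayed above Col1a2 (191 to 258).

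The comparison of bulk tumor with the cells sorted from tumors asked which of the tumor's collagens were also found in its sorted myeloid cells. With edgeR's quasi-likelihood test and a call needing both a 2-fold difference and an adjusted p below 0.001, 19 of the 21 collagens that could be tested were higher in bulk tumor than in untreated tumor PMN-MDSC. Among all genes tested, 19.6% were called in that direction. The median log2 difference was 4.29 over the tested collagens and 0.11 over all genes. One collagen, Col14a1, was lower in bulk tumor, a direction called for 21% of all genes, and Col7a1 was not called. Against untreated tumor M-MDSC, 19 of 21 collagens were again higher in bulk tumor (22.3% of all genes). With edgeR 0 were lower, where 19.6% of all genes were, and DESeq2 also called 0 lower. Col14a1 had an unadjusted edgeR p of 0.0453 in that direction. The median log2 difference was 5.66 over the tested collagens and 0.17 over all genes. The filter took genes with a mean of 25 counts over the 8 libraries compared. Most collagens passed it through bulk tumor, since 6 of the 44 reached that mean in the PMN-MDSC libraries alone and 2 in the M-MDSC libraries, so these counts of calls and medians describe the tested genes only, and the filter itself favoured genes that are high in bulk tumor.

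Type I and type III collagen were abundant in bulk tumor and low in sorted tumor cells. Col1a1 had 336, 354, 361 and 485 CPM in the bulk libraries, 7.11, 9.70, 11.6 and 16.3 CPM in untreated tumor PMN-MDSC, and 1.26, 3.30, 6.38 and 10.1 CPM in untreated tumor M-MDSC. All bulk values lay above all sorted values. The log2 difference from bulk tumor was 4.84 ± 0.26 (SE; edgeR adjusted p = 2.62e-08) for PMN-MDSC and 5.88 ± 0.36 (adjusted p = 1.06e-07) for M-MDSC. Col1a2, at 191 to 258 CPM in bulk tumor, had 4.25 to 12.5 CPM in PMN-MDSC and 0 to 8.09 CPM in M-MDSC. Col3a1 had 286, 324, 330 and 364 CPM in bulk tumor against 9.10, 9.19, 14.6 and 21.8 CPM in PMN-MDSC and 0, 1.10, 13.5 and 18.0 CPM in M-MDSC. Again the groups did not overlap, with log2 differences of 4.29 ± 0.27 (edgeR adjusted p = 8.71e-08) and 4.87 ± 0.59 (adjusted p = 3.30e-05). The call of Col3a1 against M-MDSC was lost when no filter on low counts was used (adjusted p = 0.00155). The collagen V chains Col5a1 and Col5a2 stood 4.75 and 5.12 log2 units above PMN-MDSC, and Col5a3, with 7.43 to 8.99 CPM in bulk tumor and 0 to 1.63 CPM in PMN-MDSC, 3.16 ± 0.54.

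Collagen VI, VIII and XII were at or near 0 counts in many of the sorted tumor libraries. Col6a1 had 73.2 to 139 CPM in bulk tumor and 1.998 to 7.04 CPM in untreated tumor PMN-MDSC. Col6a3 had 71.7 to 99.4 CPM in bulk tumor, 0 to 3.64 CPM in PMN-MDSC and 1 count over the 4 M-MDSC libraries. That single count gives a ratio of bulk tumor to M-MDSC of 672, with an exact 95% counting interval of 120 to 26541. Col8a1 had 40.7, 43.3, 46.7 and 46.9 CPM in bulk tumor and 2 counts in each of the untreated tumor groups, for ratios of 178 (49.1 to 1469) to PMN-MDSC and 169 (46.6 to 1396) to M-MDSC. Col12a1 fell from 78.3 to 97.5 CPM in bulk tumor to 0.799 to 3.03 CPM in PMN-MDSC, a log2 difference of 5.32 ± 0.27 (edgeR adjusted p = 1.95e-08). Col16a1 gave ratios of 34.3 (9.39 to 285) and 32.6 (8.92 to 270), each resting on 2 counts. Col5a3 in M-MDSC rested on 3 counts, with a ratio of 21.1 (7.13 to 103). Col11a1 had 0 counts in M-MDSC and was at least 20.5-fold higher in bulk tumor, taking 3 counts over the group as the floor.

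Basement membrane collagens spanned a wide range between sorted libraries. Col4a1 had 464, 480, 577 and 588 CPM in bulk tumor, 5.99, 18.0, 30.3 and 63.7 CPM in untreated tumor PMN-MDSC and 1.10, 6.30, 11.4 and 37.1 CPM in untreated tumor M-MDSC. Bulk and sorted values did not overlap, with log2 differences of 3.94 ± 0.56 (edgeR adjusted p = 1.81e-04) and 5.04 ± 0.64 (adjusted p = 4.34e-05), although these calls were lost when no filter on low counts was used (adjusted p = 0.00247 and 0.00237). Col4a2 had 198, 262, 279 and 284 CPM in bulk tumor against 6.39, 9.96, 20.0 and 21.2 CPM in PMN-MDSC, a log2 difference of 3.92 ± 0.33 (edgeR adjusted p = 1.11e-06). Col18a1 had 341, 383, 411 and 463 CPM in bulk tumor against 8.79, 21.8, 24.9 and 48.5 CPM in PMN-MDSC and 1.65, 3.05, 6.30 and 19.5 CPM in M-MDSC. Its log2 differences were 3.71 ± 0.39 (edgeR adjusted p = 1.02e-05) and 5.65 ± 0.54. The PMN-MDSC library with 63.7 CPM of Col4a1 and 48.5 CPM of Col18a1 was also highest in the summed epithelial tumor cell markers, at 853 CPM.

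Among the tested collagens with a higher mean in bulk tumor, Col15a1 and Col7a1 were the least depleted. Col15a1 had 89.5, 93.9, 94.7 and 95.03 CPM in bulk tumor and 15.98, 19.9, 21.8 and 23.8 CPM in untreated tumor PMN-MDSC, which is 21.9% of the bulk mean. The groups were tight and separate, with a log2 difference of 1.93 ± 0.17 (edgeR adjusted p = 1.13e-06). In M-MDSC it had 0, 3.33, 3.78 and 10.8 CPM, a log2 difference of 4.28 ± 0.49. Col7a1 had 8.75 to 20.2 CPM in bulk tumor and 1.63 to 4.25 CPM in PMN-MDSC, 23.9% of the bulk mean. Its log2 differences of 1.82 ± 0.39 (edgeR adjusted p = 0.00143) and 2.59 ± 0.59 (adjusted p = 0.00212) did not pass the threshold although the groups did not overlap. Col7a1 was called in both comparisons by DESeq2 (adjusted p = 1.35e-04 and 1.37e-05) and by edgeR without the filter (adjusted p = 1.83e-06 and 1.69e-08). Against PMN-MDSC it was also called on library totals, and against M-MDSC in 1 edgeR fit over all groups (adjusted p = 3.70e-04).

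**Figure D2:**
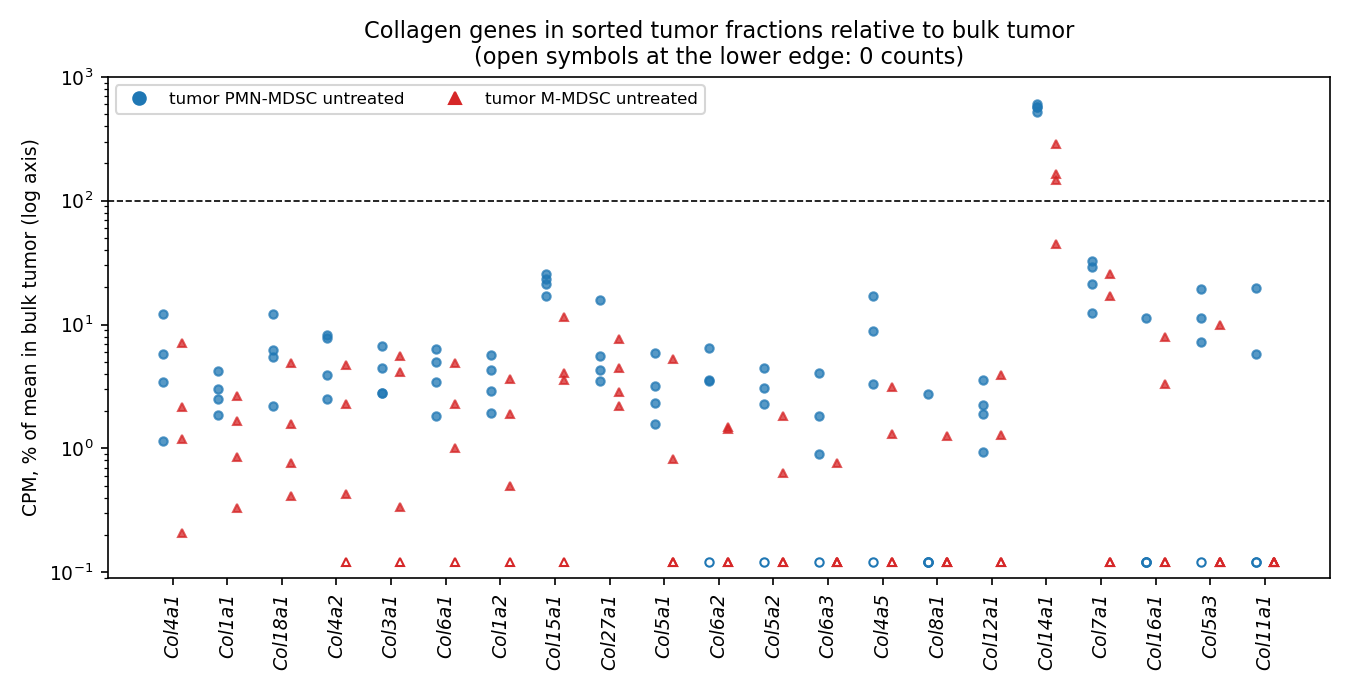
CPM of the 21 collagens with a mean of at least 5 CPM in bulk tumor, in the 4 untreated tumor PMN-MDSC libraries (circles) and the 4 untreated tumor M-MDSC libraries (triangles) as a percent of each gene's mean in bulk tumor, on a log axis, ordered by bulk FPKM. Open symbols at the lower edge are libraries with 0 counts, and the PMN-MDSC points of Col14a1, at a mean of 566%, lie above the dashed line at 100% of the bulk mean, while those of the other genes drawn lie below it. Col11a2, at 1.46 CPM in bulk tumor, is not drawn.

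Some markers of other cell types moved with this contrast and others did not. The 10 epithelial tumor cell markers summed to 5304 to 6814 CPM in bulk tumor, 139 to 853 CPM in untreated tumor PMN-MDSC and 107 to 369 CPM in untreated tumor M-MDSC, with Cldn4 and Cldn7 at 0 in PMN-MDSC and Cldn7 at 0 in M-MDSC. The 16 fibroblast markers summed to 603 to 750 CPM in bulk tumor, 397 to 704 CPM in PMN-MDSC and 267 to 321 CPM in M-MDSC, but the sorted sums were mostly Gsn, an actin-severing protein that myeloid cells also make, at a mean of 501 CPM in PMN-MDSC and 192 CPM in bulk tumor. The matrix genes of that list were low in sorted cells: Sparc had a mean of 258 CPM in bulk tumor against 9.91 and 2.85 CPM, Postn 61.2 against 0.83 and 0.74 CPM, and Dcn 7.58 against 1.08 and 0.14 CPM, in PMN-MDSC and M-MDSC. Dpt was at 0 in PMN-MDSC, and Lum, Fbln1 and Mfap5 were at 0 in M-MDSC. The 9 pericyte and smooth muscle markers summed to 104 to 149 CPM in bulk tumor, 10.4 to 104 CPM in PMN-MDSC with none at 0, and 7.70 to 13.5 CPM in M-MDSC with Des and Cnn1 at 0. The 10 endothelial markers summed to 99.0 to 167 CPM, 88.6 to 103 CPM with Emcn at 0, and 30.3 to 82.2 CPM with Tek and Emcn at 0. Schwann cell markers ran the other way, with sums of 15.1 to 32.3 CPM in bulk tumor, 47.3 to 100 CPM in PMN-MDSC and 51.1 to 80.2 CPM in M-MDSC. Acinar markers summed to 7.42 to 23.4 CPM in bulk tumor, 20.4 to 127 CPM in PMN-MDSC and 7.41 to 23.9 CPM in M-MDSC. The part of carried-over stromal or tumor cell RNA in the collagen counts of the sorted libraries was not tested.

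Of the 44 collagens, 2 had every untreated tumor PMN-MDSC library above every bulk library, Col14a1 and Col11a2. The share of all genes that met this rule was not computed here or for M-MDSC, so the counts are not read as a trait of the collagens. Col14a1 had 10.5, 11.1, 11.1 and 11.7 CPM in bulk tumor and 57.6, 63.5, 63.9 and 66.6 CPM in untreated tumor PMN-MDSC. Every library of this PMN-MDSC group was above every bulk library, and the spread within both groups was small. The log2 difference of bulk tumor from PMN-MDSC was -2.78 ± 0.16 (edgeR adjusted p = 4.30e-08), and the PMN-MDSC mean was 566% of the bulk mean. Col11a2, a minor fibrillar chain of cartilage, had 0.265, 1.14, 1.80 and 2.64 CPM in bulk tumor, from 1 to 20 counts, and 6.50, 9.10, 11.99 and 18.97 CPM in PMN-MDSC. It did not pass the filter, and without it was called lower in bulk tumor (-2.95 ± 0.43, edgeR adjusted p = 6.43e-11), where 9.93% of all genes were called lower. In untreated tumor M-MDSC Col11a2 had 3.30 to 5.04 CPM, again above every bulk library but not called (-1.36 ± 0.56, edgeR without the filter, adjusted p = 0.0402). Col9a3, a fibril-associated collagen of cartilage, was the other gene with every untreated tumor M-MDSC library above every bulk library, at 1.35 to 3.85 against 0.450 to 0.916 CPM. Untreated tumor M-MDSC had 4.95, 16.4, 18.2 and 31.9 CPM of Col14a1. These values overlapped the bulk values, with a log2 difference of -0.92 ± 0.41 (edgeR adjusted p = 0.0637). Per length, Col14a1 was the highest collagen in untreated tumor PMN-MDSC at 8.97 ± 0.542 FPKM (n = 4), above Col4a1 at 3.95 ± 3.33 FPKM and Col18a1 at 3.70 ± 2.36 FPKM, although in 1 of the 4 libraries Col4a1, at 8.53 FPKM, exceeded Col14a1, at 8.22 FPKM. It was also the highest collagen in treated tumor PMN-MDSC at 9.58 ± 5.55 FPKM (n = 4), in untreated tumor M-MDSC at 2.55 ± 1.57 FPKM (n = 4) and in treated tumor M-MDSC at 13.1 ± 14.4 FPKM (n = 3). The spread in these last groups was wide, and Col14a1 values overlapped those of other collagens there too.

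Col14a1 was low in both spleen groups after treatment. Untreated spleen PMN-MDSC had 9.82, 16.4, 21.2 and 47.8 CPM and treated spleen PMN-MDSC had 0, 0 and 2.56 CPM, the last resting on 4 counts. Untreated spleen M-MDSC had 3.31, 4.18, 5.48 and 7.38 CPM and treated spleen M-MDSC 0.291, 0.338, 0.394 and 1.33 CPM, from 1 to 3 counts each. In both spleen populations the treated values all lay below the untreated values. Treated tumor PMN-MDSC had 18.9, 52.9, 92.5 and 104 CPM and treated tumor M-MDSC 22.8, 44.6 and 208 CPM. Ordered by mean CPM, treated tumor M-MDSC (91.7 ± 101, n = 3), treated tumor PMN-MDSC (67.2 ± 38.9, n = 4) and untreated tumor PMN-MDSC (62.9 ± 3.80, n = 4) came first and did not differ beyond their spread. Untreated spleen PMN-MDSC (23.8 ± 16.6), untreated tumor M-MDSC (17.9 ± 11.05) and bulk tumor (11.1 ± 0.463) followed with overlapping values.

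**Figure D3:**
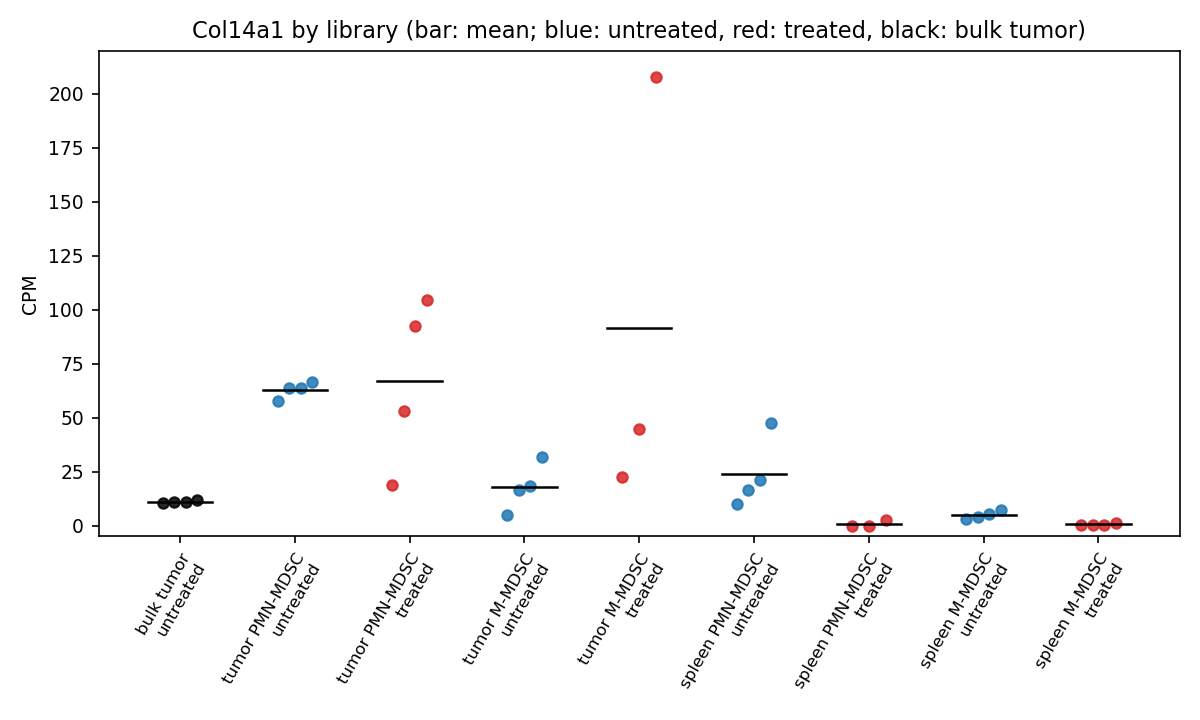
CPM of Col14a1 in each library on a linear axis, with a bar at the group mean, for bulk tumor (black), untreated (blue) and treated (red) sorted groups. Bulk tumor lies at 10.5 to 11.7 CPM, untreated tumor PMN-MDSC at 57.6 to 66.6 CPM, both treated spleen groups below 3 CPM, and 1 treated tumor M-MDSC library at 208 CPM.

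Macrophage markers moved with Col14a1 in some of these contrasts and not in others. Their summed level was 832 to 1461 CPM in bulk tumor and 7969 to 20071 CPM in treated tumor PMN-MDSC. In treated tumor M-MDSC it was 6545, 12126 and 30471 CPM in the libraries with 22.8, 44.6 and 208 CPM of Col14a1. In spleen PMN-MDSC it was 835 to 2204 CPM without and 275 to 377 CPM with treatment, and in spleen M-MDSC 2439 to 2852 CPM without and 1463 to 2107 CPM with it. Between groups the order differed. Untreated spleen M-MDSC had more marker RNA than untreated spleen PMN-MDSC or bulk tumor, but its 3.31 to 7.38 CPM of Col14a1 lay below the values of both. Treated spleen M-MDSC, with marker sums above those of every bulk library, had at most 1.33 CPM of Col14a1. None of the 8 markers was at 0 in bulk tumor or in the untreated groups, and their part in the Col14a1 differences was not tested.

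Tumor and spleen cells of 1 gate were compared to ask which collagens differed by site. Between untreated tumor and spleen PMN-MDSC, 4 collagens could be tested. Col15a1 was higher in the tumor, with 15.98 to 23.8 CPM against 2.92, 3.98, 4.17 and 6.10 CPM, a log2 difference of 2.12 ± 0.30 (edgeR adjusted p = 2.04e-04), where 9.16% of all genes were called higher. Col11a2 was lower in the tumor, with 6.50, 9.10, 11.99 and 18.97 CPM against 33.9, 35.8, 41.1 and 45.8 CPM, a log2 difference of -1.87 ± 0.31 (adjusted p = 4.86e-04), where 12.5% of all genes were called lower. Neither gene overlapped between sites, but both calls rested on single libraries. The call of Col11a2 was lost without the tumor libraries at 6.50, 9.10 or 11.99 CPM or the spleen libraries at 41.1 or 45.8 CPM (edgeR adjusted p = 0.00117 to 0.00278), and that of Col15a1 without the spleen library at 4.17 CPM (adjusted p = 0.00122). Without the tumor library at 15.98, 19.9 or 23.8 CPM, Col15a1 fell below the filter and was not tested. Col4a1, at 5.99 to 63.7 CPM against 0.339 to 4.78 CPM, and Col14a1, at 57.6 to 66.6 CPM against 9.82 to 47.8 CPM, did not overlap between sites either. They missed the main threshold with log2 differences of 3.27 ± 0.74 (edgeR adjusted p = 0.00340) and 1.28 ± 0.36 (adjusted p = 0.0113). Col4a1 was called by DESeq2 (adjusted p = 9.27e-06), where 16.1% of all genes were called higher, and in 1 edgeR fit over all groups (adjusted p = 1.44e-04), where 14.2% were. Without the spleen library at 47.8 CPM, Col14a1 was called, with a log2 difference of 1.83 (adjusted p = 1.13e-04).

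The filter on low counts kept most collagens out of this comparison. Without it, 43 collagens entered and 11 were called higher in tumor PMN-MDSC, where 5.9% of all genes were called, with Col11a2 again the 1 called lower. The 11 held basement membrane chains, with log2 differences of 6.16 ± 0.54 for Col18a1, 3.14 ± 0.48 for Col4a1 and 1.91 ± 0.42 for Col4a2 (edgeR, no filter). They also held the fibrillar chains Col3a1 (3.21 ± 0.50), Col1a2 (2.53 ± 0.58), Col1a1 (2.30 ± 0.49) and Col27a1 (2.34 ± 0.48), together with Col15a1, Col14a1, Col6a1 and Col6a2. Col1a1 had 7.11 to 16.3 CPM in the tumor and 0.963 to 2.65 CPM in the spleen. The Col6a1 and Col6a2 chains had 0 counts in all 4 spleen libraries.

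In M-MDSC, Col14a1 was the single collagen that passed the filter. It had 4.95, 16.4, 18.2 and 31.9 CPM in the tumor and 3.31 to 7.38 CPM in the spleen, overlapping through the lowest tumor library. edgeR called 0 collagens (6.35% of all genes called higher), with a log2 difference of 2.12 ± 0.47 (adjusted p = 0.00516). The unadjusted p was below 0.05, as for 39% of all genes, and DESeq2 called it (7.59% of all genes). It was also called by edgeR without the tumor library at 4.95 CPM (log2 difference 2.43, adjusted p = 4.00e-04). Without the filter, 6 of 37 collagens were called higher in tumor M-MDSC (3.99% of all genes), namely Col3a1, Col18a1, Col4a1, Col4a2, Col6a1 and Col14a1. Col3a1 and Col6a1 had 0 counts in all 4 spleen M-MDSC libraries, and values of 5 of these 6 genes overlapped between sites.

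Epithelial markers differed between the sites in the same direction as Col18a1 and Col4a1. They summed to 139 to 853 CPM in untreated tumor PMN-MDSC and 17.6 to 34.9 CPM in untreated spleen PMN-MDSC, and to 107 to 369 CPM against 6.86 to 14.9 CPM in M-MDSC. In the spleen groups Cldn4, Cldn7 and Msln were at 0, in PMN-MDSC also Krt8 and Krt19. Their part in the site differences was not tested.

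Col14a1 was among the 3 highest collagens of both untreated spleen groups, as in the sorted tumor groups, and Col11a2 was high in the spleen as well. In untreated spleen PMN-MDSC, Col11a2 led at 5.70 ± 0.784 FPKM (n = 4), followed by Col14a1 at 3.39 ± 2.37 FPKM and Col20a1, a fibril-associated collagen, at 1.47 ± 0.366 FPKM. In bulk tumor Col11a2 was at 0.213 ± 0.147 FPKM, below every spleen PMN-MDSC library. In treated spleen PMN-MDSC, Col11a2 led at 3.41 ± 2.39 FPKM (n = 3), followed by Col5a1 and Col4a2. Col5a1 had 2.60, 5.76 and 35.3 CPM there, and the high value came from 1 library. Untreated spleen M-MDSC had Col14a1 at 0.725 ± 0.252 FPKM, Col11a2 at 0.597 ± 0.092 FPKM and Col4a1 at 0.595 ± 0.057 FPKM (n = 4). These 3 did not differ beyond their spread. In treated spleen M-MDSC, Col9a3 was highest at 0.575 ± 0.226 FPKM (n = 4), with Col4a2 and Col11a2 within its SD.

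No collagen of the sorted tumor cells passed the test for an effect of poly(I:C)c. In tumor PMN-MDSC, 9 collagens were tested and edgeR called 0 (0.241% of all genes called in either direction). DESeq2 called 0 (2.32% of all genes), and 2 had an unadjusted edgeR p below 0.05 (18.2% of all genes). The 2 genes were Col18a1 and Col1a1. Col18a1 had 8.79, 21.8, 24.9 and 48.5 CPM without treatment and 0.861, 5.47, 9.56 and 14.8 CPM with treatment. The groups overlapped, with a log2 difference of -1.75 ± 0.61 (edgeR adjusted p = 0.164), which passed the threshold without the filter on low counts (adjusted p = 5.70e-04). Col1a1 had 7.11 to 16.3 CPM without treatment and 7.75, 12.9, 30.4 and 47.1 CPM with it, and Col3a1 9.10 to 21.8 CPM against 5.60, 7.75, 49.3 and 51.9 CPM. In both genes 2 treated libraries lay above all untreated libraries and the others among or below them. The log2 differences were 1.09 ± 0.48 (edgeR adjusted p = 0.263) for Col1a1, 0.996 ± 0.66 (adjusted p = 0.468) for Col3a1 and -1.45 ± 0.67 (adjusted p = 0.292) for Col4a1. Col14a1 had a log2 difference of 0.03 ± 0.36 (adjusted p = 0.978). Col27a1 did not pass the filter, but its treated values of 2.28, 2.73, 5.17 and 6.02 CPM all lay below the untreated values of 6.17, 7.59, 9.75 and 27.9 CPM. Without the filter its log2 difference was -1.57 ± 0.43 and was not called (edgeR adjusted p = 0.0125).

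In tumor M-MDSC, 5 collagens were tested and edgeR called 0 (0.012% of all genes). DESeq2 called 0 (2.57% of all genes), and 1 had an unadjusted edgeR p below 0.05 (19.2% of all genes). That gene was Col14a1, with 4.95 to 31.9 CPM without treatment and 22.8, 44.6 and 208 CPM with it. The log2 difference of 2.24 ± 0.77 (edgeR adjusted p = 0.153) rested on 1 library, and was 0.80 (adjusted p = 0.485) without the library at 208 CPM. Col1a1 had 1.26 to 10.1 CPM without treatment and 4.82, 16.4 and 26.5 CPM with it, a log2 difference of 1.404 ± 0.65 (adjusted p = 0.276). Col15a1 (1.88 ± 0.87), Col3a1 (0.98 ± 0.93) and Col4a1 (-0.85 ± 0.82) were not called either, and all 5 genes overlapped between the groups.

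**Figure D4:**
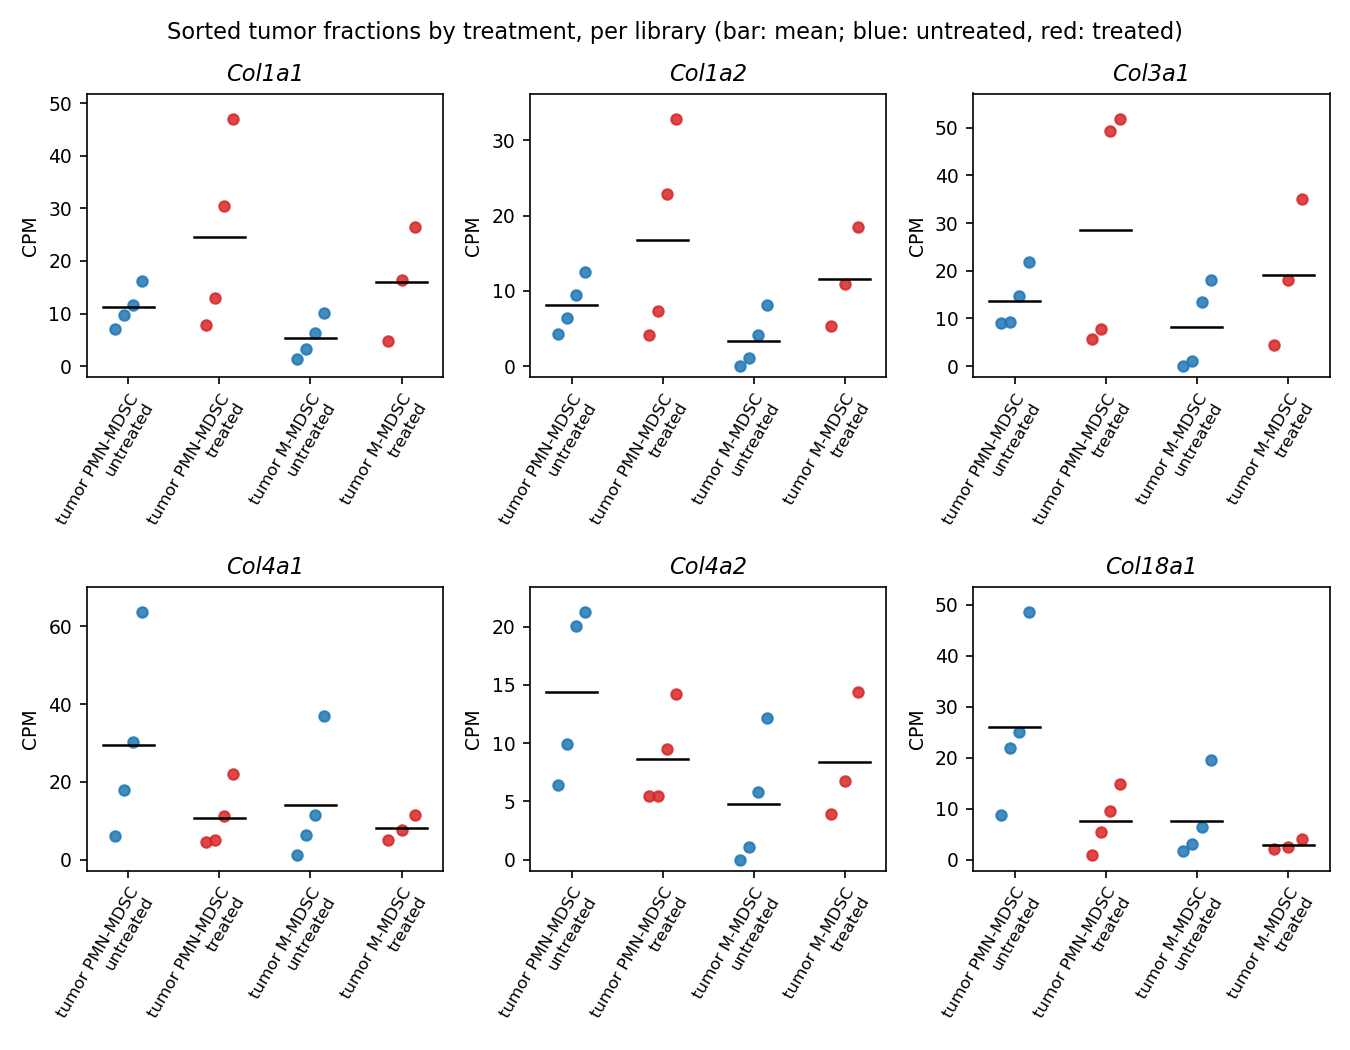
CPM of 6 collagens in tumor PMN-MDSC and tumor M-MDSC libraries without (blue) and with (red) poly(I:C)c, on linear axes with a bar at the group mean. Treated and untreated points overlap in all panels, with 2 treated PMN-MDSC libraries above the untreated ones in Col1a1, Col1a2 and Col3a1.

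Markers of tumor and matrix cells were read beside these collagens. The epithelial markers summed to 139 to 853 CPM in untreated and 76.2 to 202 CPM in treated tumor PMN-MDSC, and to 107 to 369 and 77.01 to 110 CPM in tumor M-MDSC. The sums overlapped between treated and untreated libraries in both. In PMN-MDSC edgeR called 0 of the 5 epithelial markers tested, where it called 0.241% of all genes. All 5 had an unadjusted p below 0.05, against 18.2% of all genes. In M-MDSC edgeR called 0 of 4 (0.012% of all genes), and 1 had an unadjusted p below 0.05 (19.2% of all genes). The treated PMN-MDSC libraries with 30.4 and 47.1 CPM of Col1a1 were also those with the most Sparc, at 12.6 and 17.5 CPM against 1.29 and 3.65 CPM in the other treated libraries. The whole fibroblast list did not follow, with sums of 494 and 467 CPM against 408 and 756 CPM. Nor did the pericyte and smooth muscle list, at 15.7 and 24.6 CPM against 17.2 and 20.1 CPM. Macrophage markers were highest in the same libraries, at 20071 and 19275 CPM against 7969 and 13107 CPM. The part of these markers in the collagen values was not tested.

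In spleen PMN-MDSC, 2 collagens were tested and edgeR called 0 (0.0413% of all genes), while 1, Col14a1, had an unadjusted p below 0.05 (27.4% of all genes). Its log2 difference was -4.90 ± 1.053 (edgeR adjusted p = 0.0221), resting on 4 counts in 3 treated libraries. DESeq2 called it, at -4.86 (adjusted p = 2.96e-05), a direction called for 3.33% of all genes. One edgeR fit over all groups also called it, at -5.02 (adjusted p = 5.67e-04). Col11a2 had 33.9 to 45.8 CPM without treatment and 10.4, 17.9 and 41.95 CPM with it, a log2 difference of -0.42 ± 0.45 (adjusted p = 0.598). Without the filter Col5a1 was called higher in treated spleen PMN-MDSC (2.31 ± 0.47, edgeR adjusted p = 4.69e-05), where 1.25% of all genes were called higher. Its treated values of 2.60, 5.76 and 35.3 CPM overlapped the untreated 2.65 to 4.40 CPM. Col4a2 had 2.56 to 14.1 CPM with treatment and 2.03 to 3.98 CPM without (1.80 ± 0.53, adjusted p = 0.0149, not called). In spleen M-MDSC no collagen passed the filter. Without it, 37 entered and Col14a1 was called lower after treatment, at -3.02 ± 0.66 (edgeR adjusted p = 6.91e-04), where 0.804% of all genes were called lower. In counts, the 4 treated spleen M-MDSC libraries held 1, 1, 1 and 3 counts of Col14a1.

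Whether treatment acted differently in tumor and spleen was tested as the interaction of treatment and site, at adjusted p below 0.05. In PMN-MDSC, 6 collagens were tested and 1, Col14a1, was called (3.5% of all genes). Its treatment effect in the tumor exceeded that in the spleen by 4.98 ± 1.07 log2 units (edgeR adjusted p = 0.0198) and the effect was 0.03 in the tumor and -4.90 in the spleen in the separate fits. The call was lost without either of the 2 treated spleen libraries at 0 counts (adjusted p = 0.0560 and 0.0826). Without the filter on low counts Col4a2 was also called, in the opposite direction, at -2.48 ± 0.61 (edgeR adjusted p = 0.00471), as 0.275% of all genes were. It had 6.39 to 21.2 and 5.46 to 14.2 CPM in the untreated and treated tumor. Col15a1, at a mean of 20.4 and 17.7 CPM in the untreated and treated tumor and 2.92 to 6.10 and 0.360 to 0.743 CPM in the spleen, had an interaction of 2.30 ± 0.76 (adjusted p = 0.119). It was called on library totals alone (2.61, adjusted p = 0.0498) and without the treated tumor library at 6.03 CPM (2.55, adjusted p = 0.0272). In M-MDSC only Col14a1 could be tested and edgeR called 0 (0.79% of all genes), at 5.30 ± 1.21 (adjusted p = 0.0559). Its unadjusted p was below 0.05, as for 14.2% of all genes, and DESeq2 called it at 5.38 (adjusted p = 2.42e-04), as 3.52% of all genes. edgeR called it without the treated tumor library at 22.8 CPM (adjusted p = 0.0120) or that at 44.6 CPM (adjusted p = 0.0374).

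Genes that make, export and process collagen were followed in lists. Among 15 procollagen hydroxylases and glycosyltransferases, 12 were tested against tumor PMN-MDSC, 2 were higher and 3 lower in bulk tumor, and against M-MDSC 3 were higher and 3 lower. Of all genes tested, 19.6% were called higher and 21% lower in bulk tumor against PMN-MDSC, and 22.3% higher and 19.6% lower against M-MDSC, and the shares of this list were near these. Plod1 and Plod3, lysyl hydroxylases, were lower in bulk tumor, with log2 differences of -2.53 ± 0.21 and -1.69 ± 0.20 against PMN-MDSC. P4ha1, a catalytic subunit of prolyl 4-hydroxylase, was higher in tumor than in spleen PMN-MDSC, at 101 to 193 against 24.7 to 34.2 CPM (log2 difference 2.24 ± 0.24, edgeR adjusted p = 3.75e-05), and in tumor than in spleen M-MDSC (1.96 ± 0.26). P4hb, its partner subunit, was higher in tumor than in spleen PMN-MDSC (1.69 ± 0.20).

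The collagen chaperone Serpinh1 (HSP47) moved with the collagens. It had 68.0 to 141 CPM in bulk tumor, 2.40 to 12.1 CPM in untreated tumor PMN-MDSC and 0 to 4.72 CPM in M-MDSC, with log2 differences of 3.70 ± 0.38 (edgeR adjusted p = 5.32e-06) and 6.00 ± 0.53. Of the 9 chaperone and export genes, all were tested, 3 were higher and 1 lower in bulk tumor in each comparison, beside the shares of all genes given above (19.6% higher and 21% lower against PMN-MDSC, 22.3% and 19.6% against M-MDSC), among them the export factors Mia2 (1.28 ± 0.15 against PMN-MDSC) and Sec23a (1.29 ± 0.21 against M-MDSC). The endoplasmic reticulum chaperone Hspa5 was higher in tumor than in spleen PMN-MDSC (1.26 ± 0.21). All 3 tested of the 10 procollagen proteinases were higher in bulk tumor in both comparisons, where 19.6% and 22.3% of all genes were. The 10 genes summed to 67.1 to 89.4 CPM in bulk tumor. In untreated tumor cells they summed to 3.60 to 9.21 CPM in PMN-MDSC and 0 to 6.07 CPM in M-MDSC. The tested genes thus passed the filter on low counts only through bulk tumor, which favoured this direction in advance. Log2 differences were 3.06 ± 0.30 and 6.27 ± 0.50 for Bmp1, which removes the C-terminal propeptide, and 3.67 ± 0.43 and 4.94 ± 0.65 for its enhancer Pcolce.

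Cross-linking enzymes and receptors moved both ways, and their counts stand beside the shares of all genes given above. Of 6 cross-linking enzymes, 5 were tested, 3 were higher and 1 lower in bulk tumor than in PMN-MDSC, and 2 higher and 1 lower than in M-MDSC. Loxl2, a lysyl oxidase, was higher in bulk tumor (4.52 ± 0.45 and 6.96 ± 0.47). Tgm2, a transglutaminase, had 275 to 424 CPM in bulk tumor, 1171 to 1752 CPM in tumor PMN-MDSC and 980 to 1613 CPM in tumor M-MDSC, and was lower in bulk tumor in both comparisons (-2.30 ± 0.21 and -1.97 ± 0.22). In M-MDSC Tgm2 rose from 42.6 to 48.8 CPM in the spleen to those tumor values (5.03 ± 0.19, edgeR adjusted p = 1.85e-08), and in PMN-MDSC by 2.34 ± 0.24. Of 11 collagen receptors, 7 were tested, 4 were higher and 1 lower in bulk tumor in each comparison. The integrin chain Itga2 was higher (4.12 ± 0.42 and 6.57 ± 0.34), and Lair1, an inhibitory collagen receptor of leukocytes, was lower (-3.19 ± 0.27 and -2.47 ± 0.25). Itgb1, the partner of the collagen-binding integrin chains, was higher in tumor than in spleen PMN-MDSC (1.24 ± 0.17).

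Of 10 collagenolytic enzymes and inhibitors, 9 were tested against PMN-MDSC, 1 was higher and 3 lower in bulk tumor, and against M-MDSC 8 were tested, 1 was higher and 2 lower, beside 19.6% to 22.3% of all genes in each direction. Mmp9, a gelatinase of neutrophil granules, had 1.59 to 6.64 CPM in bulk tumor and 445 to 862 CPM in untreated tumor PMN-MDSC (-7.65 ± 0.43, edgeR adjusted p = 5.08e-08). Mmp13, a collagenase, was lower in bulk tumor (-3.48 ± 0.22) and higher in tumor than in spleen PMN-MDSC, at 36.8 to 53.1 against 0.321 to 2.12 CPM (5.12 ± 0.37). Mmp8, the neutrophil collagenase, was lower in bulk tumor than in M-MDSC (-7.86 ± 0.62), and Timp3, a matrix-bound inhibitor, was higher (6.92 ± 0.54). Mmp2, another gelatinase, was higher in tumor than in spleen PMN-MDSC, at 29.6 to 49.1 against 0 to 0.963 CPM.

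Treatment effects on the genes of these 6 lists were read against those on all genes. At the main threshold of edgeR, 0 of 24 tested were called in tumor PMN-MDSC (0.241% of all genes), 0 of 25 in tumor M-MDSC (0.012%) and 0 of 18 in spleen PMN-MDSC (0.0413%), so few calls were made on any genes there. In spleen M-MDSC 2 of 22 were called (2.49%). An unadjusted p below 0.05 was found for 4 of 24 in tumor PMN-MDSC (18.2% of all genes), 8 of 25 in tumor M-MDSC (19.2%), 9 of 18 in spleen PMN-MDSC (27.4%) and 14 of 22 in spleen M-MDSC (33.3%). DESeq2 called 0 (2.32%), 2 (2.57%), 3 (7.12%) and 7 (6.91%) of them in the same order. In spleen M-MDSC, Tgm2 rose from 42.6 to 48.8 CPM to 190 to 343 CPM (2.50 ± 0.20, edgeR adjusted p = 4.91e-05), and Mmp14, the membrane-bound collagenase, rose from 15.8 to 45.9 CPM to 312 to 595 CPM (3.62 ± 0.34, adjusted p = 1.70e-04). Mmp14 was also higher in tumor than in spleen M-MDSC without treatment (2.45 ± 0.38, adjusted p = 7.63e-04). The interaction of treatment and site was called for Tgm2 in M-MDSC (-3.22 ± 0.37, adjusted p = 0.00128), for the inhibitor Timp2 in M-MDSC (2.66 ± 0.50, adjusted p = 0.0322) and for P4ha1 in PMN-MDSC (1.95 ± 0.41, adjusted p = 0.0198). The 44 collagens together had 30.7 to 38.5 CPM in untreated and 21.7 to 30.1 CPM in treated spleen M-MDSC.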

How the data were processed

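Total RNA was sequenced by the authors with a strand-specific low-input kit after depletion of ribosomal RNA. The deposited table holds whole-number counts per gene, made by the authors with ContextMap and BWA on GRCm38 and with featureCounts (Subread 1.4.6-p3) on the sense strand, per the methods and processing notes. Reads were amplified and carry no molecular identifiers, so counts can include copies of 1 fragment. Column names give tissue, gate and treatment but no number of the labels, so columns were assigned to groups and not to single samples, and the letter G was read as the granulocytic (PMN) gate. Of 35 columns 34 were used, and the column with 10 counts was left out. Of 48 pairs of libraries within groups, 0 were identical.

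CPM and FPKM were computed here from the deposited counts, on library totals and on summed exon lengths of the GRCm38 gene models (GENCODE M21), which matched 53274 of 53379 rows. Exons of Col20a1, Col3a1 and Col7a1 overlap another gene on the same strand over 1.54%, 1.44% and 0.35% of their length, where counts could be split. Groups were compared 2 at a time with edgeR 4.0.16 in R 4.3.3 (quasi-likelihood F-test, two-sided, robust, TMM scaling, genes with a mean of 25 counts or more, Benjamini-Hochberg adjustment over all genes tested). Calls needed adjusted p below 0.001 and a 2-fold change, and interactions adjusted p below 0.05. The procedure was tested on simulated data. Alternatives were DESeq2 1.42.0, RLE scaling, library totals, no filter, 1 fit over all groups, a looser threshold and leaving out each library.

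Library sizes in the fits were the total counts. An alternative with library sizes summed over the tested genes was added after calls of both had been seen. Members and gene lists were chosen with earlier results of these data known, so no list is independent evidence. Named collagens are a hand-picked list of 18 genes of the main families, the 12 highest by mean FPKM in bulk tumor, the 3 highest in each sorted group and those called between sorted groups. In each list of partner genes, the 2 called genes with the smallest adjusted p per comparison are named.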

Additional observations from a re-analysis of the deposited data

Results flagged for a closer look

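In 113 sets of 4 library values, of named collagens detected in a group and of the summed collagen level, examined for 1 library far from the others, 3 stood apart by Dixon's criterion, and chance alone flags about 1 in 20 such sets. Col1a1 had 485 CPM in 1 bulk tumor library against 336, 354 and 361 CPM in the others. Col27a1 had 27.9 CPM in 1 untreated tumor PMN-MDSC library against 6.17, 7.59 and 9.75 CPM. Col5a1 had 5.39 CPM in 1 untreated tumor M-MDSC library against 0, 0 and 0.832 CPM. The effect of treatment on Col14a1 differed between tumor and spleen PMN-MDSC by 4.98 log2 units in the interaction test of edgeR (adjusted p = 0.0198), with 0, 0 and 2.56 CPM in the treated spleen libraries.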

How the results depend on the processing

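No paired analysis was possible because the columns of the count table carry a running number and neither a mouse nor the replicate number of the labels, and columns were not matched to samples by their order. When each library was left out, 16 to 19 of the 19 collagens called against M-MDSC and 18 to 20 of the 20 called against PMN-MDSC remained called, and 0 were added. All losses against M-MDSC came from Col5a3, Col11a1 and Col16a1 falling below the filter on low counts without 1 of 3 bulk libraries, as did some of the same genes against PMN-MDSC. There calls were also lost in the test, for Col4a1 without the bulk library at 577 CPM (adjusted p = 0.00120), for Col5a3 without the PMN-MDSC library at 0.607 or 0.948 CPM, and for Col11a1 without any of 4 libraries. Between tumor and spleen PMN-MDSC, 12 collagens were called without the filter on low counts, 4 at adjusted p below 0.05, 3 by DESeq2 and 3 in 1 fit over all groups, and 0 to 4 when each library was left out. Between tumor and spleen M-MDSC 6 were called without the filter, 1 at adjusted p below 0.05, 1 by DESeq2, and 0 to 1 when each library was left out. For treatment in tumor PMN-MDSC, 1 collagen was called without the filter, and 0 to 0 when each library was left out. In tumor M-MDSC 0 were called without the filter and 0 to 0 when each library was left out. For treatment in spleen PMN-MDSC, 2 were called without the filter (Col14a1 lower, Col5a1 higher), 1 by DESeq2, 1 in 1 fit over all groups, 1 at adjusted p below 0.05, and 0 to 0 when each library was left out. For treatment in spleen M-MDSC, 1 was called without the filter, and the other alternatives had no collagen to test. For the interaction in PMN-MDSC, 2 were called on library totals (Col14a1 and Col15a1), 2 without the filter (Col14a1 and, in the opposite direction, Col4a2) and 0 to 2 when each library was left out. In M-MDSC these were 1 without the filter, 1 by DESeq2 and 0 to 1. Where the share of all genes called under an alternative is not given above, the count of collagens has no such reference. The counts in this paragraph are therefore not read as results about the collagens. The causes of these changes were not tested, beyond the larger number of genes that enter without the filter.

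The mean summed CPM on TMM-scaled totals moved to 129 in untreated and 107.5 in treated spleen PMN-MDSC and to 28.6 in untreated spleen M-MDSC, and stayed within 1 SD in the other groups. When each library was left out, the mean summed CPM ranged from 3066 to 3209 in bulk tumor, 220 to 275 and 198 to 281 in untreated and treated tumor PMN-MDSC, 65.1 to 111 and 147 to 243 in tumor M-MDSC, 98.2 to 114 and 73.5 to 74.3 in spleen PMN-MDSC, and 33.6 to 36.2 and 25.3 to 28.1 in spleen M-MDSC. The ratios ranged from 3.20 to 3.37 for Col1a1 to Col1a2, 1.77 to 1.92 for Col4a1 to Col4a2, 0.966 to 1.21 for Col5a1 to Col5a2, 2.16 to 2.31 for Col6a1 to Col6a2 and 0.286 to 0.318 for Col6a3 to Col6a1. On library totals the median log2 difference of all genes was 0.38 for bulk tumor against PMN-MDSC, against 0.11 with TMM, and 0.36 against M-MDSC, against 0.17, a shift small beside the collagen differences. No called difference changed sign. The log2 treatment difference of Col14a1 in tumor PMN-MDSC, near 0, changed sign when any 1 of 3 libraries was left out, reaching -0.23. Summing library sizes over the tested genes left the number of collagens called the same in every comparison. Depth limited the sorted groups, where 3 counts correspond to 0.689 to 3.78 CPM per library.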
